A study of Rattus norvegicus with 16 samples.

Results

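Messenger RNA of 10 genes for making and storing fat was followed in the tibialis anterior, a muscle at the front of the lower leg, of rats with a mutated Dmd gene, which encodes dystrophin. The genes were taken by symbol from a table of 31141 rat genes: the transcription factor gene Srebf1, the fatty acid synthesis genes Acly, Me1, Acaca and Fasn, the elongase Elovl6, the desaturase Scd, and the triglyceride synthesis genes Gpam, Dgat1 and Dgat2. Each symbol matched 1 row. Of 16 libraries, 6 were of genotype Dmd with the MCTKD diet (DMD_KD), 6 were of genotype Dmd with normal food (DMD_ND) and 4 were wild type, also with normal food (WT_ND). All were of the Wistar-Imamichi strain and were fed their diet from weaning until 9 months of age. The labels do not spell out MCTKD, commonly a medium-chain triglyceride ketogenic diet, and name neither the Dmd allele nor its founder line. They do not say that each library is a separate animal, so the p-values rest on the spread among libraries, some of which may be technical. No wild-type group received the MCTKD diet, so an effect of the diet on wild-type muscle was not measured.

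Cells make fat from carbohydrate by exporting citrate from mitochondria, splitting it to acetyl-CoA, carboxylating that to malonyl-CoA and building palmitate from it at the cost of NADPH. Palmitate is then lengthened and desaturated to oleate, joined to glycerol phosphate and closed to triglyceride. Liver and fat tissue run this route strongly under SREBP-1 control, while muscle fibres mainly burn fatty acids and use malonyl-CoA to hold back their entry into mitochondria. RNA came from whole muscle pieces, in which fewer cells of a type and less RNA per cell cannot be told apart.

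The reads assigned to genes ranged from 17125084 to 28116085 per library. Values are FPKM, fragments per kilobase of gene at a common depth, as deposited, in which the typical gene is level between libraries. Differences were taken of log2(FPKM + 1), so that those of low genes come out too small, and a gene was called at a limma adjusted p under 0.05 over all 12119 genes tested. Dmd itself had 0.546 to 2.04 FPKM in DMD_KD and 1.37 to 1.98 FPKM in DMD_ND, against 4.13 to 11.9 FPKM in WT_ND. WT_ND replicates 1 and 4 and DMD_KD replicate 3 stood apart, with summed FPKM of 995390, 949407 and 727999, against 712116 and 623029 in the other WT_ND libraries and 398180 to 469461 in the other DMD_KD libraries. Results that rest on them are given with and without them. Muscle fibre markers were present in every library (11 of 14 measured, summed level 43800 to 139134 FPKM in DMD_KD, 34987 to 56924 in DMD_ND and 77268 to 140231 in WT_ND).

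Of the 10 genes, 9 had at least 1 FPKM in at least 4 libraries and were tested. Elovl6, which lengthens palmitate to stearate, did not pass that filter. The order of mean levels differed between the groups. In DMD_ND it ran Me1 (53.3 FPKM), Scd (37.1), Srebf1 (28.7), Dgat1 (9.45), Gpam (9.25), Dgat2 (6.31), Acly (5.13), Fasn (2.62), Acaca (2.25) and Elovl6 (0.0783). In WT_ND it ran Me1 (115.5 FPKM), Srebf1 (31.1), Dgat2 (30.8), Gpam (19.4), Dgat1 (13.8), Acly (2.88), Scd (2.48), Acaca (2.47), Fasn (0.661) and Elovl6 (0.0540). Genes near each other in this order whose libraries overlapped included Dgat1 and Gpam or Fasn and Acaca in DMD_ND, and Srebf1 and Dgat2 or Acly and Acaca in WT_ND. Me1 thus headed both groups, while Scd stood second in DMD_ND and among the low genes in WT_ND.

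**Figure D1:**
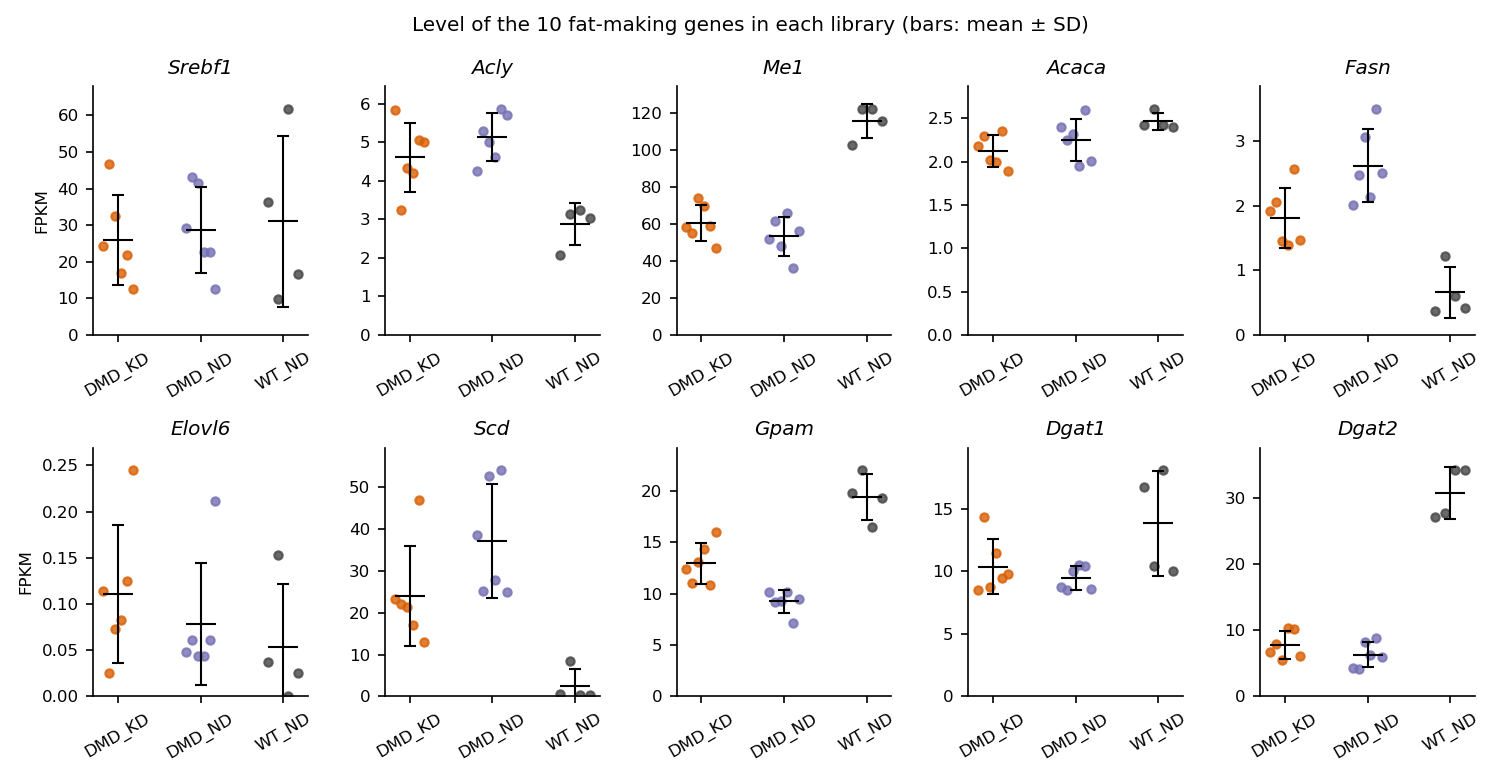
FPKM of each of the 10 genes (vertical axes, each from 0) in every library of DMD_KD (n = 6), DMD_ND (n = 6) and WT_ND (n = 4), with points for libraries and bars for mean ± SD. Scd and Fasn are higher in both DMD groups than in WT_ND, and Me1, Gpam and Dgat2 are lower in both, with no overlap.

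Start sites of 5 of the 10 genes (Srebf1, Acly, Me1, Scd and Gpam) were matched in RefSeq tables of the build GRCr8. The windows of 300 bases, 250 before the start and 50 after it, are given here for 2 genes that were higher and 2 that were lower in DMD_ND than in WT_ND. Scd lies at chr1:253231682-253231981 and Acly at chr10:85963582-85963881, Me1 at chr8:96540195-96540494 and Gpam at chr1:264175862-264176161, all on the minus strand and printed 5′ to 3′ along the gene. Capitals mark matches, on either strand, to the CCAAT box (CCAAT) and the GC box (GGGCGG), which are common promoter elements.
Scd: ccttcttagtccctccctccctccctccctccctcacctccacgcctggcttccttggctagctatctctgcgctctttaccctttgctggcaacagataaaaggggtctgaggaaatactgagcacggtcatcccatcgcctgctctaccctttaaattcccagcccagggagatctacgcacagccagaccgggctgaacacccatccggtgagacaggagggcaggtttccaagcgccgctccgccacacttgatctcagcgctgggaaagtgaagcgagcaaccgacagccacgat
Acly: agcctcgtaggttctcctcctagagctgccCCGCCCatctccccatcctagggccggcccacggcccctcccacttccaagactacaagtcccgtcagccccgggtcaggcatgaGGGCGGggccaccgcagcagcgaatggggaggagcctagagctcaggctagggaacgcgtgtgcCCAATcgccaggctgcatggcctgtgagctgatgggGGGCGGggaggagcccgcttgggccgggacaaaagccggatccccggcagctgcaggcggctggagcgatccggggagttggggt
Me1: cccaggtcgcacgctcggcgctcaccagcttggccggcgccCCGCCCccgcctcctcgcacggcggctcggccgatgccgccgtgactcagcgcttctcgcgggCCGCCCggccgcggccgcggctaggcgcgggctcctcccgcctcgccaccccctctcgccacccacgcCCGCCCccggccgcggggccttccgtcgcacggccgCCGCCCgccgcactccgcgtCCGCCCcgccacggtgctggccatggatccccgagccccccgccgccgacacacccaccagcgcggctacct
Gpam: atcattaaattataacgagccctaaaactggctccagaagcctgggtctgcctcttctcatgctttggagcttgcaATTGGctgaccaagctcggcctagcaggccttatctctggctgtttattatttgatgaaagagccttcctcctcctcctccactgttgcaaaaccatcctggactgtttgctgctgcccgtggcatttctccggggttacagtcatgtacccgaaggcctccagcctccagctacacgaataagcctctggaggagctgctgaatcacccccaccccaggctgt
The CCAAT letters occurred once each in the Acly and Gpam windows and in 37.5% of 33469 promoter windows of that length. GC boxes numbered 3 in Acly and 5 in Me1 and were found in 33.1% of all windows. The letters TCACNCCAC of a sterol response element (1.12% of all windows) and the E-box CACGTG (6.42%) were in none of the 4 windows, nor in the 2 windows of Srebf1, which held 1 and 2 CCAAT boxes and 3 GC boxes each. No match overlapped another, and the searches describe only these windows.

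Set against WT_ND, DMD_ND shows the genotype difference on normal food. Scd, Fasn and Acly rose in Dmd-mutant muscle, and Dgat2, Me1, Gpam and Dgat1 fell. Acaca and Srebf1 were not called. The 7 called of 9 tested genes (3 higher, 4 lower) stand beside 65.7% of all tested genes called, 31.5% of them as higher and 34.3% as lower, so the count alone does not set these genes apart. Groups did not overlap for 6 of the 9, against 55.1% of all tested genes (3 of the 9 higher, against 26.8%, and 3 lower, against 28.3%). At an unadjusted p under 0.05 there were 7 of the 9, against 68.5% of all tested genes. Without WT_ND replicates 1 and 4 and DMD_KD replicate 3, 4 were called higher and 3 lower, with Srebf1 gained and Dgat1 lost.

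Dystrophic muscle differs from wild type in which genes take most reads, so the scaling matters here. With every library set to an equal total (TPM), the median of all genes moved to 0.83 on the log2 scale, and the calls over all genes split 8564 higher and 720 lower, against 3815 higher and 4152 lower as deposited. With mitochondrial genes left out of the total, the split was 6346 higher and 1448 lower. Under TPM 6 of the 9 genes were called higher and 1, Dgat2, lower. Relative to the shifted median gene, each of the 7 called genes kept its direction under TPM, at 4.26 for Scd, 1.23 for Fasn, 0.77 for Acly, -0.34 for Dgat1, -0.88 for Gpam, -0.95 for Me1 and -2.09 for Dgat2. Changes below are relative to the typical gene in that sense. Subtracting the median largely undoes the rescaling, so the kept directions were nearly fixed in advance and are no check on the scaling.

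Srebf1 (ENSRNOG00000003463, chromosome 10, 45007637 to 45029650 in mRatBN7.2, minus strand) encodes SREBP-1, the transcription factor that switches on the enzymes of this route. Its lowest, median and highest values were 12.7, 26.0 and 43.0 FPKM in DMD_ND, and the 4 WT_ND libraries (replicates 1, 3, 4 and 9) had 36.3, 9.73, 61.8 and 16.6 FPKM. The WT_ND libraries thus spanned the whole range of DMD_ND and beyond. The log2 fold change was 0.09 (SE 0.44, adjusted p = 0.86), and under TPM it was called at 1.09 (adjusted p = 0.015). It was 1.001 (adjusted p = 0.043) without WT_ND replicates 1 and 4 and DMD_KD replicate 3, and -0.33 (adjusted p = 0.52) without WT_ND replicate 3, so the level in wild-type muscle rests on which libraries are kept.

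Acly (ENSRNOG00000016924, chromosome 10, 85412049 to 85463320, minus strand) encodes ATP citrate lyase, which splits citrate to acetyl-CoA in the cytosol. It had 4.27, 5.15 and 5.87 FPKM (lowest, median, highest) in DMD_ND, against 2.08, 3.15, 3.25 and 3.03 FPKM in WT_ND. Every DMD_ND library lay above every WT_ND library. The rise was 1.59-fold (log2 0.67, SE 0.13, adjusted p = 0.00027).

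Me1 (ENSRNOG00000009715, chromosome 8, 87549043 to 87660304, minus strand), the cytosolic malic enzyme that makes NADPH, was the most abundant of the 10. It had 36.3, 54.0 and 65.8 FPKM (lowest, median, highest) in DMD_ND, against 102.4, 122.1, 121.9 and 115.4 FPKM in WT_ND. No library of either group reached the other. Its fall was 2.18-fold (log2 -1.12, SE 0.16, adjusted p = 8.9e-06), and under TPM it was -0.12 (adjusted p = 0.58).

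Acaca (ENSRNOG00000034013, chromosome 10, 69014170 to 69276457, plus strand), the acetyl-CoA carboxylase that makes malonyl-CoA for synthesis, had 1.95, 2.29 and 2.59 FPKM (lowest, median, highest) in DMD_ND and 2.42, 2.61, 2.43 and 2.40 FPKM in WT_ND. These values overlapped within a narrow band. The log2 difference of -0.09 had a 95% interval of -0.27 to 0.08 (adjusted p = 0.33), and under TPM it turned to 0.70 (adjusted p = 0.00058).

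Fasn (ENSRNOG00000045636, chromosome 10, 106072091 to 106090261, minus strand), the fatty acid synthase that builds palmitate, had 2.02, 2.49 and 3.51 FPKM (lowest, median, highest) in DMD_ND, against 0.379, 1.23, 0.611 and 0.425 FPKM in WT_ND. The groups were apart, and WT_ND replicate 3 came nearest to the mutant libraries. Fasn rose 2.20-fold on the log2(FPKM + 1) scale (log2 1.14, SE 0.15, adjusted p = 6.1e-06), and with 0.1 FPKM added in place of 1 the log2 fold change was 1.94.

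Elovl6 (ENSRNOG00000048949, chromosome 2, 218063804 to 218171186, plus strand) was at or near the detection limit in every library. It was counted by 3 or 4 reads in 5 DMD_ND libraries and by 13 reads in DMD_ND replicate 11, against 1, 7, 0 and 1 reads in WT_ND. At these counts no difference was detectable.

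Scd (ENSRNOG00000013552, chromosome 1, 243269747 to 243282562, minus strand) encodes stearoyl-CoA desaturase, which turns stearate into oleate, and changed most of the 9. It had 24.8, 33.0 and 54.0 FPKM (lowest, median, highest) in DMD_ND, against 0.585, 8.57, 0.326 and 0.446 FPKM in WT_ND. WT_ND replicate 3 had far more Scd than the other wild-type libraries, yet stayed below every mutant one. The rise was 15.6-fold on the log2(FPKM + 1) scale (log2 3.96, SE 0.46, adjusted p = 1.2e-06). With 0.1 FPKM added in place of 1 it was 5.02 on the log2 scale, and without WT_ND replicate 3 it was 4.64. Without WT_ND replicates 1 and 4 and DMD_KD replicate 3 it was 3.28 (adjusted p = 0.00025).

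Gpam (ENSRNOG00000015124, chromosome 1, 254106331 to 254142639, minus strand), the mitochondrial acyltransferase of the first step of glycerolipid synthesis, had 7.16, 9.39 and 10.2 FPKM (lowest, median, highest) in DMD_ND, against 19.8, 22.0, 16.5 and 19.4 FPKM in WT_ND. All mutant libraries lay below all wild-type libraries. Gpam fell 1.99-fold (log2 -0.995, SE 0.12, adjusted p = 2e-06), and under TPM the difference was -0.06 (adjusted p = 0.82).

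Dgat1 (ENSRNOG00000028711, chromosome 7, 108218524 to 108234299, minus strand) and Dgat2 (ENSRNOG00000016573, chromosome 1, 153454080 to 153484428, minus strand) encode the unrelated enzymes that each close a diacylglycerol to triglyceride. Dgat2 had 4.19, 6.12 and 8.80 FPKM (lowest, median, highest) in DMD_ND, against 27.1, 27.7, 34.3 and 34.2 FPKM in WT_ND. The gap between the groups was wider than either group's range. Dgat2 fell 4.46-fold (log2 -2.16, SE 0.20, adjusted p = 6.8e-08) and was also called lower under TPM (log2 -1.26, adjusted p = 0.00042).

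Dgat1 had 8.49, 9.34 and 10.5 FPKM (lowest, median, highest) in DMD_ND, against 16.7, 10.5, 18.1 and 9.99 FPKM in WT_ND. The high wild-type values were those of replicates 1 and 4, and the other 2 overlapped with the mutant libraries. Its fall of 1.38-fold (log2 -0.46, SE 0.17, adjusted p = 0.02) was not called without WT_ND replicate 1 (log2 -0.36, adjusted p = 0.085), without WT_ND replicate 4 (log2 -0.33, adjusted p = 0.098) or without both and DMD_KD replicate 3 (log2 -0.11, adjusted p = 0.40). It turned to 0.49 under TPM (adjusted p = 0.0018).

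Srebf1, Acly, Acaca and Dgat1 overlap other genes on the opposite strand in the deposited table (Rai1, Eif1 and Fkbp10, a gene without a symbol, and Hsf1). How strand was treated in counting is not stated by the labels, so reads of such partners cannot be told apart. Scd is close in sequence to Scd2, and reads could be split between them.

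**Figure D2:**
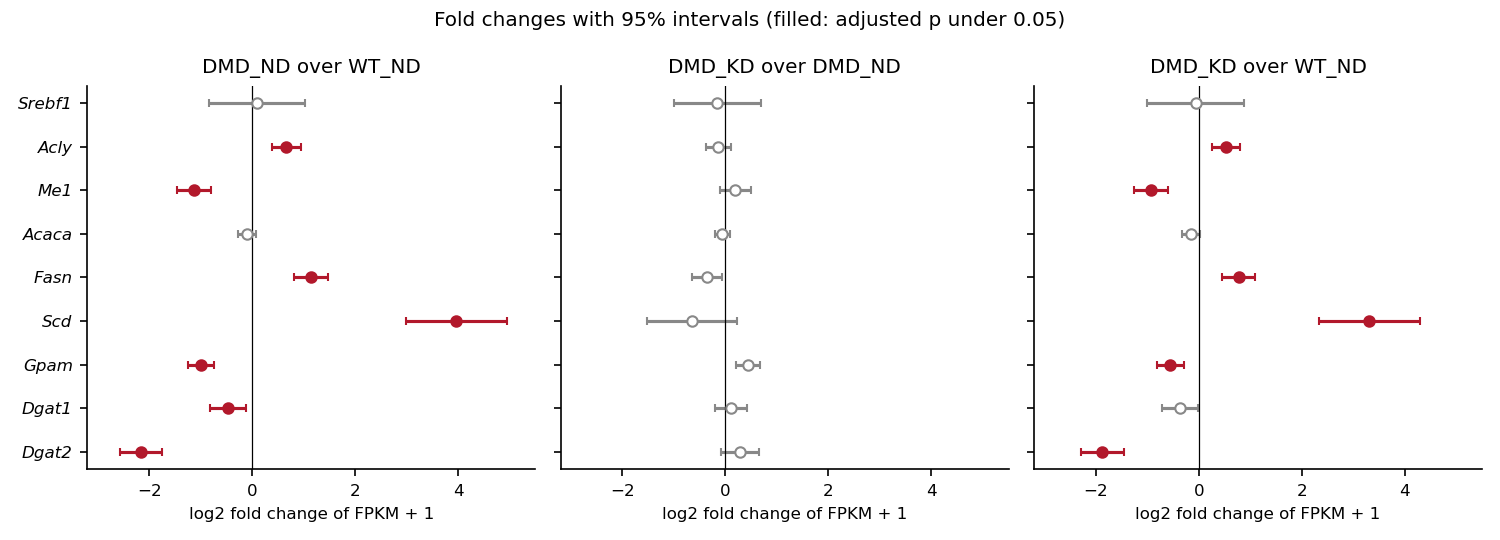
Log2 fold change of FPKM + 1 (horizontal axes) with its 95% interval for the 9 tested genes (rows) in DMD_ND over WT_ND, DMD_KD over DMD_ND and DMD_KD over WT_ND, with filled points where the limma adjusted p was under 0.05. Scd lies near 3.96 and Dgat2 near -2.16 in the first panel, and no point is filled in the second.

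The genes around the route moved in both directions. Of 11 tested genes that supply acetyl-CoA, malonyl-CoA or NADPH, 4 were higher and 5 lower in DMD_ND, beside 31.5% and 34.3% of all tested genes. Their median log2 fold change was -0.14, against -0.04 over all tested genes. Me2, a mitochondrial malic enzyme, rose to 3.67 FPKM in DMD_ND, against 0.576 FPKM in WT_ND (log2 1.57, adjusted p = 2.4e-08). Me3, the other mitochondrial form, fell to 8.04 FPKM in DMD_ND, against 30.5 FPKM in WT_ND (log2 -1.78). Acacb, the carboxylase on the mitochondrial surface, fell to 12.1 FPKM in DMD_ND, against 34.4 FPKM in WT_ND (log2 -1.44), and Acss2, which makes acetyl-CoA from acetate, to 11.9 against 29.96 FPKM (log2 -1.25). The median of these genes turned to 0.82 under TPM, close to the 0.83 of the median gene.

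Other elongases and desaturases were mostly higher, as Scd was (median log2 0.96, and 1.097 above the median gene under TPM). Of 11 tested, 9 rose and 1 fell, beside 31.5% and 34.3% of all tested genes. Scd2, the near copy of Scd, stood at 18.5 FPKM in DMD_ND, against 3.02 FPKM in WT_ND (log2 2.28, adjusted p = 1.7e-09). Elovl1, which lengthens long chains, stood at 11.4 FPKM in DMD_ND, against 3.52 FPKM in WT_ND. Fads1, a desaturase of polyunsaturated fatty acids, stood at 5.37 FPKM in DMD_ND, against 1.49 FPKM in WT_ND. Hsd17b12, a reductase of the elongation cycle, stood at 5.93 FPKM in DMD_ND, against 2.53 FPKM in WT_ND.

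Other glycerolipid synthesis genes followed no single direction (median log2 -0.30). Of 14 tested, 4 were higher and 6 lower, beside 31.5% and 34.3% of all tested genes. Lpin1, the phosphatase that makes diacylglycerol, fell to 10.3 FPKM in DMD_ND, against 49.1 FPKM in WT_ND (log2 -2.15, adjusted p = 2.6e-07). Fitm2, needed to form lipid droplets, fell to 4.70 FPKM in DMD_ND, against 13.1 FPKM in WT_ND, and Mogat2, a monoacylglycerol acyltransferase, to 0.887 against 4.55 FPKM. Agpat4, an acyltransferase for lysophosphatidate, rose to 6.02 FPKM in DMD_ND, against 1.33 FPKM in WT_ND (log2 1.58). Under TPM the split was 9 higher and 3 lower, and the list's median stayed below that of all genes by 0.18 on the log2 scale (0.64 against 0.83).

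Among 15 tested regulators of lipogenesis, 2 were higher and 6 lower (median log2 -0.02), beside 31.5% and 34.3% of all tested genes. Rxra, the nuclear receptor that pairs with LXR and PPAR proteins, fell to 18.4 FPKM in DMD_ND, against 60.04 FPKM in WT_ND (log2 -1.64). Ppargc1b, a coactivator of SREBP-1, fell to 1.27 FPKM in DMD_ND, against 3.98 FPKM in WT_ND, Usf2 to 31.3 against 49.8 FPKM and Nr1h3, which encodes LXR alpha, to 6.98 against 10.9 FPKM. Under TPM the split of this list was 13 higher and 1 lower, with its median 0.09 above that of all genes.

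Markers of other cells changed as well, beside 31.5% of all tested genes called higher and 34.3% lower in DMD_ND. Fat cells express the whole route strongly, and all 6 tested adipocyte markers of 8 measured rose in DMD_ND (median log2 2.78). Their summed level was 118.8, 173.3 and 512.8 FPKM (lowest, median, highest) in DMD_ND, against 12.2, 37.7, 21.6 and 12.0 FPKM in WT_ND (log2 difference 3.44, exact two-sided permutation p = 0.0048, the smallest that 6 against 4 libraries allow, adjusted p = 0.0071 over 3 comparisons). The sum of the 8 markers follows mostly Cfd. In DMD_ND Cfd averaged 159.6 FPKM of a mean sum of 243.9 FPKM, in DMD_KD 104.8 of 142.0 and in WT_ND 11.3 of 20.9. WT_ND replicate 3, the wild-type library with the most Scd, also had the highest sum of its group. Cfd stood at 159.6 FPKM in DMD_ND, against 11.3 FPKM in WT_ND, Adipoq at 46.8 against 5.64, Plin1 at 17.0 against 1.27 and Retn at 10.7 against 0.465. Retn passed the filter on low values through the DMD groups alone, with at most 0.844 FPKM in WT_ND, so the filter favoured its rise. Adrb3 was at 0 in 1 DMD_ND library and in 2 WT_ND libraries, and Slc7a10 in 1 WT_ND library.

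With the mean log2 level of the adipocyte markers as a covariate, Scd kept a log2 fold change of 2.02 (adjusted p = 0.011), Dgat2 of -2.83 (adjusted p = 3.2e-06), Gpam of -0.77 (adjusted p = 0.0087), Me1 of -0.80 (adjusted p = 0.026) and Fasn of 0.54 (adjusted p = 0.0499). Acly was not called in that fit (log2 0.42, adjusted p = 0.16), nor was Dgat1 (log2 -0.41, adjusted p = 0.31). The marker sums of DMD_ND and WT_ND did not overlap, so the fit carried a slope found within groups across that gap. It cannot separate genotype from the fat-cell signal. All 10 tested markers of fibro-adipogenic progenitors rose as well (median log2 2.36), as did all 12 of macrophages (median log2 2.73), while 10 of 11 muscle fibre markers fell (median log2 -1.24), with 3 of the 11 called lower and 1 higher under TPM. Of the macrophage markers, Itgam passed the filter on low values through the DMD groups alone, with at most 0.410 FPKM in WT_ND. The part of these cell types in the results was not tested.

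The relation of Scd to the adipocyte markers passed in DMD_ND, by Pearson's r alone. Across the 6 DMD_ND libraries, log2 Scd and the log2 marker sum had r = 0.93 (exact permutation p = 0.0014, adjusted p = 0.028 over 20 relations) and Spearman rho = 1 (exact p = 0.0028, adjusted p = 0.056). That exact p of rho is the smallest that 6 libraries allow, so a single relation could not pass by rank over 20 relations. Without replicates 6 and 9, the libraries farthest from the median, r was 0.79 over 4 libraries. Across the 6 DMD_KD libraries, r was 0.72 (exact permutation p = 0.088, adjusted p = 0.25), rho was 0.77 (exact p = 0.10, adjusted p = 0.51), and r was 0.29 without replicates 1 and 9. This was 1 of 20 relations (10 genes in each DMD group) to pass, and the next, Me1 in DMD_ND, had r = -0.88 (exact permutation p = 0.018, adjusted p = 0.18), which was -0.10 without replicates 6 and 9. WT_ND had too few libraries for a correlation.

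**Figure D3:**
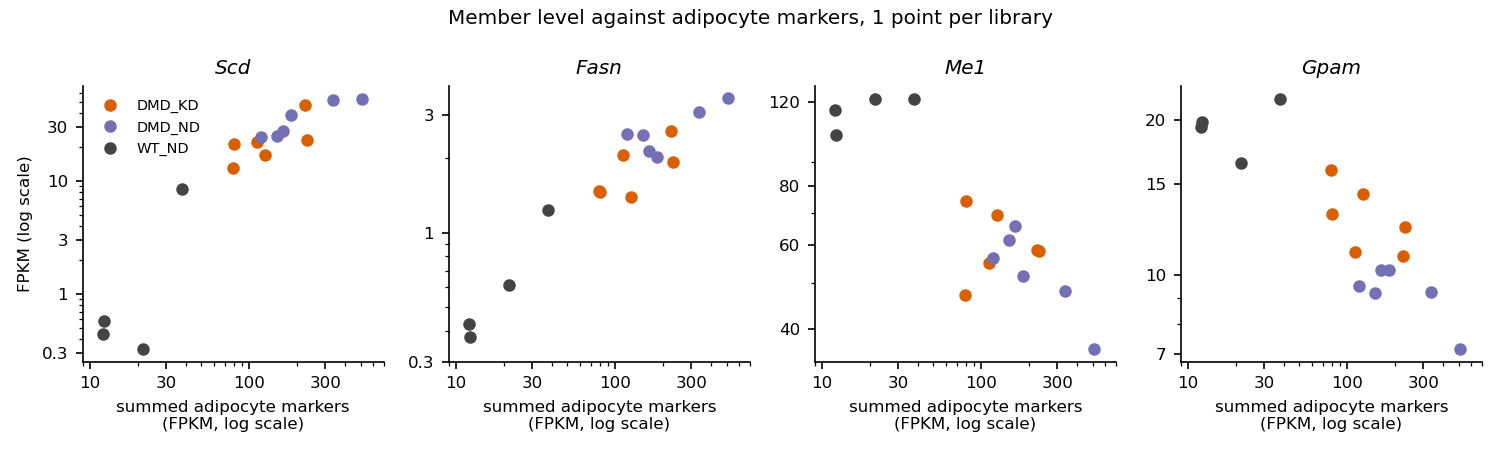
FPKM of Scd, Fasn, Me1 and Gpam (vertical axes, log scale) against the summed FPKM of 8 adipocyte markers (horizontal axes, log scale), 1 point per library, coloured by group. In the Scd panel the DMD_ND points climb with the markers and WT_ND replicate 3 lies between the other wild-type libraries and the DMD libraries.

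Of 4 brown fat markers 1, Cidea, a lipid droplet protein, passed the filter on low values. It passed through the DMD groups alone, with at most 0.632 FPKM in WT_ND. Cidea averaged 5.23 FPKM in DMD_ND, against 0.541 FPKM in WT_ND (log2 1.96, limma adjusted p = 1.4e-07). Elovl3 averaged 0.395 FPKM in DMD_ND and 0.510 FPKM in WT_ND, and Zic1 0.0533 and 0 FPKM. Ucp1, the defining gene of brown fat, was at 0 in all DMD_ND and all WT_ND libraries. In DMD_KD it was at 0 in 3 libraries and at most 0.126 FPKM.

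DMD_KD set against DMD_ND shows the diet difference in Dmd-mutant muscle. None of the 9 genes was called by limma, against 0.00825% of all tested genes (1 gene), and none by limma-voom on the recovered reads or without WT_ND replicates 1 and 4 and DMD_KD replicate 3. At an unadjusted p under 0.05 there were 2, Gpam and Fasn, against 14.3% of all tested genes. The groups did not overlap for 1 gene, Gpam, against 1.48% of all tested genes. Gpam was higher and Scd and Fasn had lower values on the diet, each without passing the test over all genes.

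Gpam had 10.9, 12.7 and 16.01 FPKM (lowest, median, highest) in DMD_KD, against 7.16, 9.39 and 10.2 FPKM in DMD_ND. Every DMD_KD library lay above every DMD_ND library. The log2 difference was 0.44 (SE 0.11, 95% interval 0.21 to 0.67, limma adjusted p = 0.14). With estimated weights per library, which gave DMD_KD replicate 3 the weight 0.129, it was 0.42 and was called (adjusted p = 0.040, over a range of 0.040 to 0.76 across the alternatives), in a fit that called 93 genes in all. Set beside WT_ND, Gpam averaged 13.0 ± 1.98 FPKM in DMD_KD (SD, n = 6), 9.25 ± 1.12 FPKM in DMD_ND (n = 6) and 19.4 ± 2.28 FPKM in WT_ND (n = 4).

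Fasn had 1.40, 1.70 and 2.58 FPKM (lowest, median, highest) in DMD_KD, against 2.02, 2.49 and 3.51 FPKM in DMD_ND. The groups overlapped in part. The log2 difference was -0.36 (SE 0.14, 95% interval -0.66 to -0.07, limma adjusted p = 0.26).

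Scd had 13.0, 21.7 and 46.9 FPKM (lowest, median, highest) in DMD_KD, against 24.8, 33.0 and 54.0 FPKM in DMD_ND. Replicate 9 held the highest value of each group, and 5 of the 6 DMD_KD libraries lay below the lowest DMD_ND library. The log2 difference of -0.65 had a 95% interval of -1.52 to 0.23 (adjusted p = 0.45). With the adipocyte markers as a covariate it was 0.06 (adjusted p = 0.99). The summed adipocyte markers were 78.9, 118.9 and 231.8 FPKM in DMD_KD (lowest, median, highest), against 118.8, 173.3 and 512.8 FPKM in DMD_ND (log2 difference -0.71, exact two-sided permutation p = 0.13, adjusted p = 0.13).

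For the remaining genes the intervals of the diet difference were -0.99 to 0.68 for Srebf1, -0.38 to 0.11 for Acly, -0.11 to 0.49 for Me1, -0.21 to 0.10 for Acaca, -0.21 to 0.42 for Dgat1 and -0.09 to 0.65 for Dgat2, on the log2 scale. Dgat2 had 5.56, 7.34 and 10.4 FPKM (lowest, median, highest) in DMD_KD, against 4.19, 6.12 and 8.80 FPKM in DMD_ND, and most libraries lay in the shared range. Me1 had 47.2, 58.5 and 74.2 FPKM in DMD_KD, against 36.3, 54.0 and 65.8 FPKM in DMD_ND, with the same kind of overlap. Elovl6 was counted by 1 to 13 reads per library in DMD_KD and by 3 to 13 in DMD_ND. The intervals of Srebf1, Me1 and Dgat2 include a difference as large as that of Gpam.

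No gene of the surrounding lists was called in this comparison. At an unadjusted p under 0.05 there were 5 of 11 supply genes, 1 of 11 other elongases and desaturases, 3 of 14 other glycerolipid genes and 1 of 15 regulators, against 14.3% of all tested genes. The 4 supply genes with the smallest p all had higher values on the diet. Of all 11 supply genes only 5 did, and their list had a median log2 difference of -0.01. Mlycd, which breaks down malonyl-CoA, averaged 31.1 FPKM in DMD_KD and 17.9 FPKM in DMD_ND (log2 0.73, SE 0.15, adjusted p = 0.14). Pgd, an NADPH source of the pentose phosphate route, averaged 22.5 and 15.7 FPKM (log2 0.54, adjusted p = 0.22), Acacb 16.04 and 12.1 FPKM (log2 0.37) and Acss2 15.03 and 11.9 FPKM (log2 0.30), in DMD_KD and DMD_ND in that order.

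The median over all tested genes was -0.01. The elongases and desaturases had a median of -0.18, led by Hsd17b12 (log2 -0.30), Fads2 (-0.22), Fads3 (-0.27) and Elovl5 (-0.30). The glycerolipid genes had a median of 0.17, led by Agpat4 (log2 -0.30), Agpat3 (0.28), Lpin1 (0.46) and Agpat5 (-0.24). The regulators had a median of 0.04, led by Rxra (log2 0.44), Nr1h3 (0.26), Ppargc1b (0.28) and Thrsp (-0.38), a lipogenic protein induced by thyroid hormone. Under TPM the median gene moved to -0.24, and the glycerolipid and regulator medians turned to -0.08 and -0.20.

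Adipocyte markers were lower on the diet without a call (0 of 6, 3 at an unadjusted p under 0.05, median log2 -0.91), with Retn at -1.33, Lep at -0.79, Adipoq at -1.06 and Plin1 at -1.03 on the log2 scale. Progenitor markers had a median of -0.32, macrophage markers of -0.17 and muscle fibre markers of 0.46 on the log2 scale, with 0 of 10, 0 of 12 and 0 of 11 called. Their part in the values of Scd, Fasn and Gpam was not tested beyond the adipocyte covariate.

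The third comparison set DMD_KD against WT_ND, which differ in both genotype and diet and share libraries with the comparisons above. Of the 9 genes, 3 were higher and 3 lower, against 27.3% and 31.1% of all tested genes (58.3% in either direction), and groups did not overlap for 6 of the 9, against 37.2% of all tested genes (2 higher, against 20%, and 4 lower, against 17.3%). At an unadjusted p under 0.05 there were 7 of the 9, against 62.5% of all tested genes. Without WT_ND replicates 1 and 4 and DMD_KD replicate 3, 3 were again called in each direction. The split over all genes was 3304 higher and 3764 lower as deposited and 6930 higher and 573 lower under TPM, which moved the median gene to 0.56. Scd was higher by 3.31 on the log2 scale (SE 0.46, adjusted p = 1.3e-05), Fasn by 0.77 (SE 0.15, adjusted p = 0.00041) and Acly by 0.53 (SE 0.13, adjusted p = 0.0024). With 0.1 FPKM added in place of 1, Scd was higher by 4.35 and Fasn by 1.42. Dgat2 was lower (log2 -1.87, SE 0.20, adjusted p = 5.5e-07), as were Me1 (log2 -0.93, SE 0.16, adjusted p = 8.8e-05) and Gpam (log2 -0.55, SE 0.12, adjusted p = 0.00097). The value for Gpam was 0.15 under TPM, 0.41 below the median gene.

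Acaca (log2 -0.15, 95% interval -0.32 to 0.02), Dgat1 (log2 -0.36, adjusted p = 0.073) and Srebf1 (log2 -0.06, adjusted p = 0.91) were not called against WT_ND. Acaca had 1.89, 2.10 and 2.35 FPKM (lowest, median, highest) in DMD_KD, against 2.42, 2.61, 2.43 and 2.40 FPKM in WT_ND. All DMD_KD values were just below all WT_ND values, the only uncalled gene of which this held. Dgat1 was called lower without DMD_KD replicate 3 (log2 -0.45, adjusted p = 0.016), which had the highest value of its group at 14.3 FPKM, without WT_ND replicate 3 (log2 -0.47, adjusted p = 0.031) and without WT_ND replicate 9 (log2 -0.49, adjusted p = 0.022). Over all single omissions its difference ran from -0.49 to -0.22 (limma adjusted p = 0.016 to 0.28). Under TPM it was called higher (log2 0.34, limma adjusted p = 0.023), though 0.22 below the median gene. Adipocyte markers were higher in DMD_KD too (4 of 6 called, summed level log2 difference 2.72, exact permutation p = 0.0048, adjusted p = 0.0071). With them as a covariate, Scd stood at 2.07 (adjusted p = 0.0015), and Fasn (log2 0.39, adjusted p = 0.059), Acly (log2 0.37, adjusted p = 0.099) and Gpam (log2 -0.41, adjusted p = 0.053) were not called, while Acaca was called lower (log2 -0.27, adjusted p = 0.049). The marker sums of DMD_KD and WT_ND did not overlap either, so this fit cannot separate the group difference from the fat-cell signal.

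The surrounding lists in DMD_KD against WT_ND gave 4 supply genes higher and 5 lower of 11 (median log2 -0.22), 9 other elongases and desaturases higher and 0 lower of 11 (0.85), 2 other glycerolipid genes higher and 6 lower of 14 (-0.23), and 1 regulator higher and 4 lower of 15 (-0.01), beside a median of -0.06 over all tested genes. Over all tested genes 27.3% were called higher and 31.1% lower in this comparison. Under TPM the glycerolipid genes split 8 higher and 2 lower and the regulators 11 higher and 1 lower. All 12119 tested genes then split 6930 higher and 573 lower.

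Apart from the added 0.1 FPKM, ratios of related genes within a library do not depend on the scaling between libraries. Of 18 such tests (6 pairs in 3 comparisons, exact two-sided permutation, adjusted together) 6 passed. Acaca relative to Acacb, the form for synthesis against the form that restrains oxidation, was higher in DMD_ND than in WT_ND (log2 ratio -2.37 ± 0.32, SD, n = 6, and -3.74 ± 0.16, n = 4, exact p = 0.0048, adjusted p = 0.021). It was also higher in DMD_KD (-2.84 ± 0.35, SD, n = 6) than in WT_ND (adjusted p = 0.021), and neither DMD group overlapped with WT_ND. Acaca itself was not called against WT_ND (log2 -0.09 in DMD_ND and -0.15 in DMD_KD), while Acacb was lower (-1.44 and -1.07). Against WT_ND the ratio therefore mostly restates the fall of Acacb. DMD_KD stood 0.48 below DMD_ND in this ratio (exact p = 0.028, adjusted p = 0.072).

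Dgat2 relative to Dgat1 was lower in DMD_ND (-0.62 ± 0.34, SD, n = 6) and in DMD_KD (-0.42 ± 0.36, n = 6) than in WT_ND (1.19 ± 0.48, n = 4), each with an exact p = 0.0048 and an adjusted p = 0.021. Dgat2 thus exceeded Dgat1 in wild-type muscle on average and was below it in both DMD groups. Without WT_ND replicates 1 and 4 and DMD_KD replicate 3, which leaves 2 wild-type libraries, the difference of DMD_ND from WT_ND was -2.21 (Dgat2 over Dgat1 log2 ratio, DMD_ND minus WT_ND), and the smallest adjusted p of any ratio against WT_ND was 0.14, the permutation p being coarse at that size. Leaving out WT_ND replicate 1 or 9 alone put the adjusted p of the Acaca to Acacb and Dgat2 to Dgat1 differences of DMD_ND from WT_ND at 0.054, with 3 wild-type libraries and differences that stayed at 1.27 or more and at -1.63 or less over all single omissions. Gpam relative to Gpat4, a form of the same enzyme in the endoplasmic reticulum, was lower in DMD_ND (-0.77 ± 0.13, SD, n = 6) than in WT_ND (-0.02 ± 0.52, n = 4, exact p = 0.0095, adjusted p = 0.034), and DMD_KD (-0.39 ± 0.37, n = 6) was 0.38 above DMD_ND (exact p = 0.043, adjusted p = 0.078). Without DMD_KD replicate 3 that last difference was 0.51 (adjusted p = 0.029).

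Elovl6 relative to Elovl5 was 1.12 lower on the log2 scale in DMD_ND than in WT_ND (exact p = 0.014, adjusted p = 0.043), but Elovl6 was at 0 to 13 reads, with a mean below the added 0.1 FPKM in both groups. The ratio therefore mostly restates Elovl5, which had 9.13 FPKM in DMD_ND, against 3.49 FPKM in WT_ND, and does not measure a difference in Elovl6. Scd relative to Scd2 was 2.44 higher in DMD_ND (0.93 ± 0.43, SD, n = 6) than in WT_ND (-1.51 ± 1.98, n = 4), which did not pass (exact p = 0.033, adjusted p = 0.075). Without WT_ND replicate 3 the difference was 3.42 (adjusted p = 0.036). Srebf1 relative to Srebf2, the paralogue that drives cholesterol genes, differed by -0.09 between DMD_ND and WT_ND, by -0.18 between DMD_KD and DMD_ND and by -0.28 between DMD_KD and WT_ND (adjusted p = 0.83, 0.64 and 0.64). The spread of this ratio among WT_ND libraries (SD 0.98) exceeded each of these differences.

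**Figure D4:**
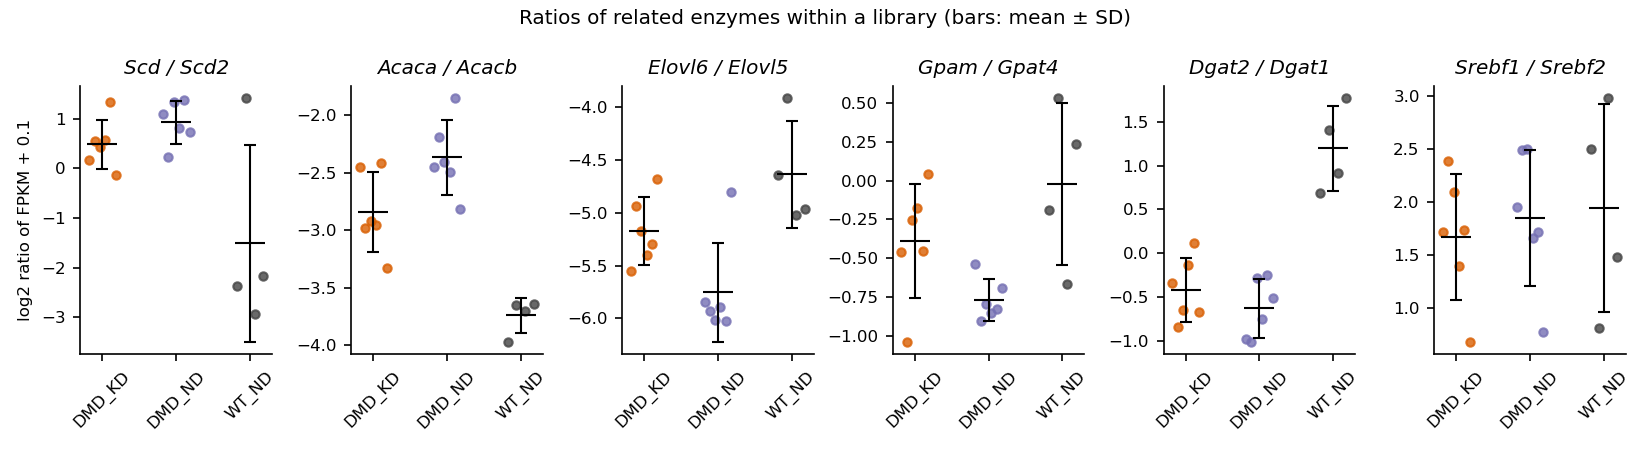
Log2 ratio of FPKM + 0.1 of 6 pairs of related genes (vertical axes) in every library of DMD_KD, DMD_ND and WT_ND, with bars for mean ± SD. The Acaca to Acacb ratio is higher and the Dgat2 to Dgat1 ratio lower in both DMD groups than in WT_ND, with no overlap.

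Genes whose levels followed the 3 most abundant of the 10 most closely over the 16 libraries were ranked by Pearson r of log2(FPKM + 1), as a description in which genotype separates the libraries. For Me1 these included Cmbl and Aff1, each with r = 0.98. For Scd they were Tceal5 (r = 0.97), Asap3 (0.96) and Pxdn (0.95). For Srebf1 they included Zdhhc3 (r = 0.87) and Pofut2 (r = 0.84). Cmbl had a mean of 12.7 FPKM in DMD_KD, 11.7 FPKM in DMD_ND and 24.2 FPKM in WT_ND, the order in which Me1 stood as well.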

How the data were processed

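Poly-A RNA of frozen muscle was made into cDNA from random hexamers by a directional or a non-directional protocol, and the labels' protocols do not say which. The submitters' processing notes name mRatBN7.2 as genome build, HISAT2 2.0.5 and, for counting, featureCounts 1.5.0-p3. Not given in the sources used here are the annotation release, the strand setting and how reads with several matches were handled. The authors deposited FPKM per gene and library, per the file headers. FPKM times gene length gave whole reads (100.0% of values within 0.05), so reads per library were recovered. Every column was mapped to a sample. No library repeated another, since chi-square per degree of freedom within groups was 11.7 or more (genes of 20 reads or more).

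Tests on log2(FPKM + 1) used limma 3.58.1 (R 4.3.3), trend and robust options on, in 1 model of group means over 16 libraries (13 residual degrees of freedom), for genes that reached 1 FPKM in 4 or more libraries. P-values are two-sided and Benjamini-Hochberg adjusted over 12119 genes, 0.05 being the threshold. Single values were compared by exact permutation. The fit was tested on simulated data. Alternatives were another pseudocount (0.1), filters, scalings, library weights, limma-voom on recovered reads, only the groups compared, a replicate block, an adipocyte covariate and each library left out; 2 that leave out several libraries were chosen after seeing the data. The members and the 12 lists (159 entries, 143 measured) were chosen with earlier results of these data known. All 10 members are described, up to 4 genes of smallest p per list are named, and 3 most alike genes for each of the 3 most abundant members; some genes that this rule selects are not reported here. GC content was not checked, as no genome was used. Promoter windows are RefSeq's, in GRCr8, and were not compared with the table's coordinates.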

Additional observations from a re-analysis of the deposited data

Results flagged for a closer look

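Of 51 checks of a gene or ratio within a group of 4 or 6 libraries, 6 found a library farther from the others than Dixon's critical value allows, and chance flags about 1 in 20 such groups. Scd stood at 46.9 FPKM in DMD_KD replicate 9, with the other DMD_KD libraries between 13.0 and 23.4 FPKM. In WT_ND replicate 3 Scd was 8.57 FPKM, with the other wild-type libraries between 0.326 and 0.585 FPKM. That library also held the highest Acaca of its group, 2.61 FPKM against 2.40 to 2.43 FPKM. Gpam was 7.16 FPKM in DMD_ND replicate 9, with the others between 9.20 and 10.2 FPKM. Elovl6 was 0.212 FPKM (13 reads) in DMD_ND replicate 11, with the others between 0.0438 and 0.0612 FPKM, and its log2 ratio to Elovl5 there was -4.81, with the others between -6.03 and -5.84.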

How the results depend on the processing

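Scd, Me1 and Dgat2 kept their direction against WT_ND under every alternative run, as did Fasn and Acly except that a mean of at least 5 FPKM left them untested, and no alternative called any of the 9 genes between DMD_KD and DMD_ND except the weights per library (1 higher, Gpam). Genes called higher in DMD_ND against WT_ND numbered 1 with a mean of at least 5 FPKM (fewer genes tested) and 6 under TPM, and genes called lower 1 under TPM and 2 with mitochondrial genes left out of the total. In DMD_KD against WT_ND they were 1, 5 and 1 higher (mean of at least 5 FPKM, TPM, adipocyte covariate) and 1 lower under each of TPM, the total without mitochondrial genes and the replicate block. Over all genes, a mean of at least 5 FPKM called 4361 for DMD_ND and 3950 for DMD_KD against WT_ND of 6244 tested, and the adipocyte covariate 3863 and 4595, and 0 between the DMD groups, where the weights called 93, leaving out DMD_KD replicate 9 called 7, DMD_ND replicate 7 called 2, only the 2 groups 2, and leaving out WT_ND replicates 1 and 4 and DMD_KD replicate 3 called 3.

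Directions turned as follows on the log2 scale, the cause being the scaling itself for the first 2 settings and not tested otherwise. Under TPM and with mitochondrial genes left out, DMD_ND against WT_ND gave Dgat1 0.49 and 0.14 and Acaca 0.70 and 0.44. DMD_KD against WT_ND gave Dgat1 0.34 and 0.067, Acaca 0.41 and 0.20, Srebf1 0.67 and 0.39, and Gpam 0.15 under TPM. DMD_KD against DMD_ND gave Dgat1 -0.15 and -0.075 and Me1 -0.076 under TPM. With the adipocyte covariate the diet difference was 0.057 for Scd and 0.0094 for Acaca. Srebf1 in DMD_KD against WT_ND was 0.33 with weights, 0.66 with the replicate block and 0.15 with the covariate. With libraries left out, singly or as the pair or trio that stood apart, Srebf1 ran from -0.33 to 1.001 (DMD_ND against WT_ND), -0.36 to 0.015 (DMD_KD against DMD_ND) and -0.67 to 0.66 (DMD_KD against WT_ND), and its ratio to Srebf2 from -0.47 to 0.70, -0.40 to 0.014 and -0.80 to 0.38. The adipocyte sums ran from 3.18 to 3.76 in DMD_ND and from 2.52 to 3.09 in DMD_KD against WT_ND.

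Leaving out 1 library gave 0 to 4 ratios past the threshold in DMD_ND against WT_ND, 0 to 1 in DMD_KD against DMD_ND and 0 to 3 in DMD_KD against WT_ND, and 1 between the DMD groups without replicate 3 of WT_ND and of DMD_KD. In DMD_ND against WT_ND the Acaca to Acacb difference stayed at 1.27 to 1.47 and the Dgat2 to Dgat1 difference at -1.99 to -1.63 (adjusted p = 0.054 without WT_ND replicate 1 or 9, which gave the counts of 0, the permutation p being coarser with 3 wild-type libraries). Without WT_ND replicates 1 and 4 and DMD_KD replicate 3, 0 ratios passed against WT_ND, and the adipocyte sums differed by 3.25 and 2.58 (adjusted p = 0.071 each), since 2 wild-type libraries allow no smaller p.

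The deviations of same-numbered libraries correlated at 0.02 to 0.23 between the DMD groups (4 pairs). They correlated at -0.66 to 0.41 between DMD_KD and WT_ND (3 pairs) and at -0.02 to 0.06 between DMD_ND and WT_ND (2 pairs). So few pairs cannot settle whether the numbers pair samples. With the replicate block, 2 of the 9 genes were called higher and 3 lower in DMD_ND against WT_ND (lost: Scd at 3.65, adjusted p = 0.057, Fasn at 1.05, adjusted p = 0.052, and Dgat1 at -0.09; gained: Srebf1 at 0.96), 0 between the DMD groups and 2 higher in DMD_KD against WT_ND, with 6672, 0 and 2831 genes called over all. Depth limits Elovl6, at 0 to 13 reads per library, and little else, since the other 9 genes had at least 21 reads per library.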

Other observations

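Cholesterol synthesis and uptake genes, which share SREBP control with the fat-making genes, moved in both directions. Of 19 tested, 8 rose and 6 fell in DMD_ND against WT_ND, beside 31.5% and 34.3% of all tested genes (median log2 0.13, against -0.04 over all tested genes). Under TPM 15 were higher and 3 lower, beside 8564 higher and 720 lower of all 12119 tested genes. The list's median was then 0.82, close to the 0.83 of the median gene. Fdft1, squalene synthase, fell to 2.37 FPKM in DMD_ND, against 9.23 FPKM in WT_ND (log2 -1.60, limma adjusted p = 4.2e-09). Sc5d, a sterol desaturase, fell to 1.90 FPKM in DMD_ND, against 7.70 FPKM in WT_ND (log2 -1.59). Msmo1, a sterol oxidase, rose to 8.06 FPKM in DMD_ND, against 3.11 FPKM in WT_ND (log2 1.14). Between DMD_KD and DMD_ND 0 of the 19 were called and 2 had an unadjusted p under 0.05, Fdft1 (log2 0.34, groups apart, adjusted p = 0.20) and Msmo1 (log2 -0.32, adjusted p = 0.21). In DMD_KD against WT_ND, 6 were higher and 5 lower, beside 27.3% and 31.1% of all tested genes.

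Scd was also set against Adipoq within each library, a ratio chosen after its values were seen and not tested. Scd per Adipoq FPKM was 0.687, 1.31 and 2.02 (lowest, median, highest) in DMD_KD, 0.580, 0.9998 and 1.19 in DMD_ND and 0.104, 0.201 and 0.598 in WT_ND, where the highest wild-type value was that of replicate 3. Fasn per Adipoq FPKM was 0.0567, 0.0891 and 0.188 in DMD_KD, 0.0377, 0.0650 and 0.117 in DMD_ND and 0.0859, 0.161 and 0.195 in WT_ND. Endothelial markers showed 2 higher and 2 lower of 8 in DMD_ND against WT_ND (median log2 0.06). Schwann cell markers showed 2 higher and 0 lower of 6 (median log2 0.36). These stand beside 31.5% of all tested genes higher and 34.3% lower. In either list 0 were called between the DMD groups. Under TPM the endothelial markers in DMD_ND against WT_ND were 6 higher and 0 lower of the 8. The Schwann cell markers were then 6 higher and 0 lower of the 6. Of all 12119 tested genes 8564 were higher and 720 lower under TPM. The endothelial median was then 0.20 and the Schwann cell median 0.33 above that of all genes, on the log2 scale.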
